A study of Homo sapiens with 19 samples.

Results

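The 30 genes described here encode the enzymes and regulators of sterol and fatty acid synthesis. They were picked by name for their roles, with earlier results of these data known, from the 31033 gene names on an Agilent expression array, and a gene was given the value of its brightest probe. By role, 7 act in the mevalonate pathway, 3 in making and closing squalene, 8 between lanosterol and cholesterol and 5 in control of the SREBP transcription factors. STARD4 carries sterol inside the cell, 4 genes make saturated and monounsaturated fatty acids, and FADS1 and FADS2 desaturate polyunsaturated fatty acids. SC4MOL and SC5DL are the array's older names for MSMO1 and SC5D.

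Cholesterol is built from acetyl-CoA through mevalonate, farnesyl diphosphate, squalene and lanosterol. Both this route and fatty acid synthesis are switched on by the sterol regulatory element-binding proteins (SREBPs), membrane proteins encoded by SREBF1 and SREBF2 that SCAP escorts to the Golgi when sterols are scarce, while INSIG proteins hold SCAP back when sterols are plentiful. Macrophages, which take up lipid from debris and lipoproteins, also carry liver X receptors (LXRs), which respond to oxidized sterols and are known to raise sterol exporters, SREBF1 and desaturase genes.

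Macrophage-like cells were obtained from THP-1, a human line derived from an acute monocytic leukemia, with 30 nM of the phorbol ester PMA, a standard inducer of macrophage traits in this line, and a rest without it. Flasks then received 0.1 mM vitamin C (vitC) or were left untreated (UT), and RNA was taken 8, 24, 48 and 96 h later, so every group shared the PMA treatment and the leukemic background of 1 line. UT cells were measured on 2, 3, 2 and 3 arrays at these times and vitC cells on 3, 2, 2 and 2, after samples with poorer RNA had been set aside by the authors. The study asked how a physiological level of vitC alters macrophage gene expression over time.

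A normalized signal is the log2 spot intensity minus the 75th percentile of its array, so 0 marks that percentile, and q is the Benjamini-Hochberg adjusted p of limma over all 31033 genes. The macrophage genes CSF1R and TYROBP had group means of 7.97 to 8.51 and 6.76 to 7.71, and 10 of 11 monocyte and macrophage markers were well above background on 18 of 19 arrays, with MRC1 on none. The levels of the 11 were not all steady. From 8 to 96 h in UT cells they changed by -1.88 to 4.22, with 3 higher and 4 lower at q of at most 0.05 (17.8% of all genes in either direction). The brightest probe of every one of the 30 genes was well above background on all 19 arrays. Arrays lay on 4 slides. The slide of the UT arrays at 8, 24 and 48 h also held UT 96 h replicate 1, and no slide held UT and vitC cells of the same time. The vitC 96 h arrays had a slide and a scan day of their own, so at 96 h slide, scan day and vitC cannot be told apart.

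Promoter sequence was available in RefSeq (GRCh38.p14) for 26 of the 30 genes, all but ACAT2, FDFT1, SQLE and FASN. The 250 bases before the start are printed for 5 genes, chosen after their values were seen, that show the different patterns over time: SCD, which rose with time, LSS, which fell in UT cells, STARD4, which fell in both treatments, INSIG1, which rose and then fell in UT cells, and SREBF2, which holds a sterol regulatory element. Each is read 5′ to 3′ on the gene's strand, and capitals mark the letters CCAAT, which read ATTGG when they lie on the opposite strand, and TCACNCCAC. The windows lie at chr10:100346983-100347232 (SCD, plus strand), chr7:155297628-155297877 (INSIG1, plus strand), chr22:41832855-41833104 (SREBF2, plus strand), chr21:46228775-46229024 (LSS, minus strand) and chr5:111512536-111512785 (STARD4, minus strand). Those of INSIG1, SREBF2 and STARD4 also overlap the divergent or antisense transcripts INSIG1-DT, SREBF2-AS1 and STARD4-AS1.
SCD: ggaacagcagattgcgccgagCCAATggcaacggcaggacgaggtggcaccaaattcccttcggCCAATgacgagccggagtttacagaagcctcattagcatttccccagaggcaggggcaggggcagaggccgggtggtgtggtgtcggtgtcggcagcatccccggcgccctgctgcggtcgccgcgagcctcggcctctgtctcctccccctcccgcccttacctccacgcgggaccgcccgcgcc
INSIG1: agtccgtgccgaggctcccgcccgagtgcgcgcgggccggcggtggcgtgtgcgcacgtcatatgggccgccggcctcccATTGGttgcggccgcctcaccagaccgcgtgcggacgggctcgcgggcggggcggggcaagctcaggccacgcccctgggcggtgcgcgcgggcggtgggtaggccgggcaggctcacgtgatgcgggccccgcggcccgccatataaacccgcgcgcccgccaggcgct
SREBF2: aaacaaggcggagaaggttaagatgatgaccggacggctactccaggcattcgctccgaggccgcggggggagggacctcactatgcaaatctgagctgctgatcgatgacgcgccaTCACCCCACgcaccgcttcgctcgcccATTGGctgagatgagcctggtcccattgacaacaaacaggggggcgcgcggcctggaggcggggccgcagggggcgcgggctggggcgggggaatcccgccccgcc
LSS: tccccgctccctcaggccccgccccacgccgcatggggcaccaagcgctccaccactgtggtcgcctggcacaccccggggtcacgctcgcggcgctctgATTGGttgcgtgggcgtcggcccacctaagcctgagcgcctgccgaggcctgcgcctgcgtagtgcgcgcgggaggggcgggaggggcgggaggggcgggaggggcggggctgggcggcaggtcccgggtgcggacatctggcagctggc
STARD4: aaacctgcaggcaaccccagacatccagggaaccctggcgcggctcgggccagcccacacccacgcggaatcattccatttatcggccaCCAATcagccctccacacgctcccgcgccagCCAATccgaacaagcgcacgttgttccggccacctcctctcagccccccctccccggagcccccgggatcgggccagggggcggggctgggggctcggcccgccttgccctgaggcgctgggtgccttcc

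The 26 genes have 36 such windows. CCAAT or ATTGG, the box bound by NF-Y, which works beside SREBPs, occurred in 23 windows (63.9%), against 32.0% of all 35116 windows of that length and 32.8% of those of coding genes on the array. GGGCGG or CCGCCC, the GC box bound by Sp1, was in 32 windows (88.9%), against 42.6% of all windows and 54.4% of those of coding genes on the array. TCACNCCAC or GTGGNGTGA, a strict form of the sterol regulatory element, was found in 1 window, that of SREBF2 (2.78%), against 0.883% of all windows and 0.919% of those of coding genes on the array. Some genes have several windows, which can overlap. Counted by gene, 19 of 26 (73.1%) held CCAAT or ATTGG and 25 of 26 (96.2%) the GC box, against 37.0% and 46.2% of all genes with windows. Windows of expressed genes alone were not counted. No motif searched is contained in another, and these are descriptions of letters, not of bound sites.

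Among the 30 genes, 21 passed (q at most 0.05) in at least 1 of the 14 tests made of each gene, as did 51.7% of all genes. In some comparison with 8 h 15 genes passed in UT cells (21.9% of all genes) and 16 in vitC cells (37.3% of all genes), and 4 passed in a comparison of vitC with UT cells (20.1% of all genes). The directions were mixed: the desaturases, SREBF1, ACAT2, FDPS and DHCR7 rose with time in both treatments, while SQLE, STARD4 and the feedback gene INSIG1 were lower at 96 h than at 8 h in both. The 9 genes that passed nowhere were CYP51A1, SC4MOL, NSDHL, HSD17B7, SC5DL, INSIG2, ACLY, ACACA and FASN.

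**Figure D1:**
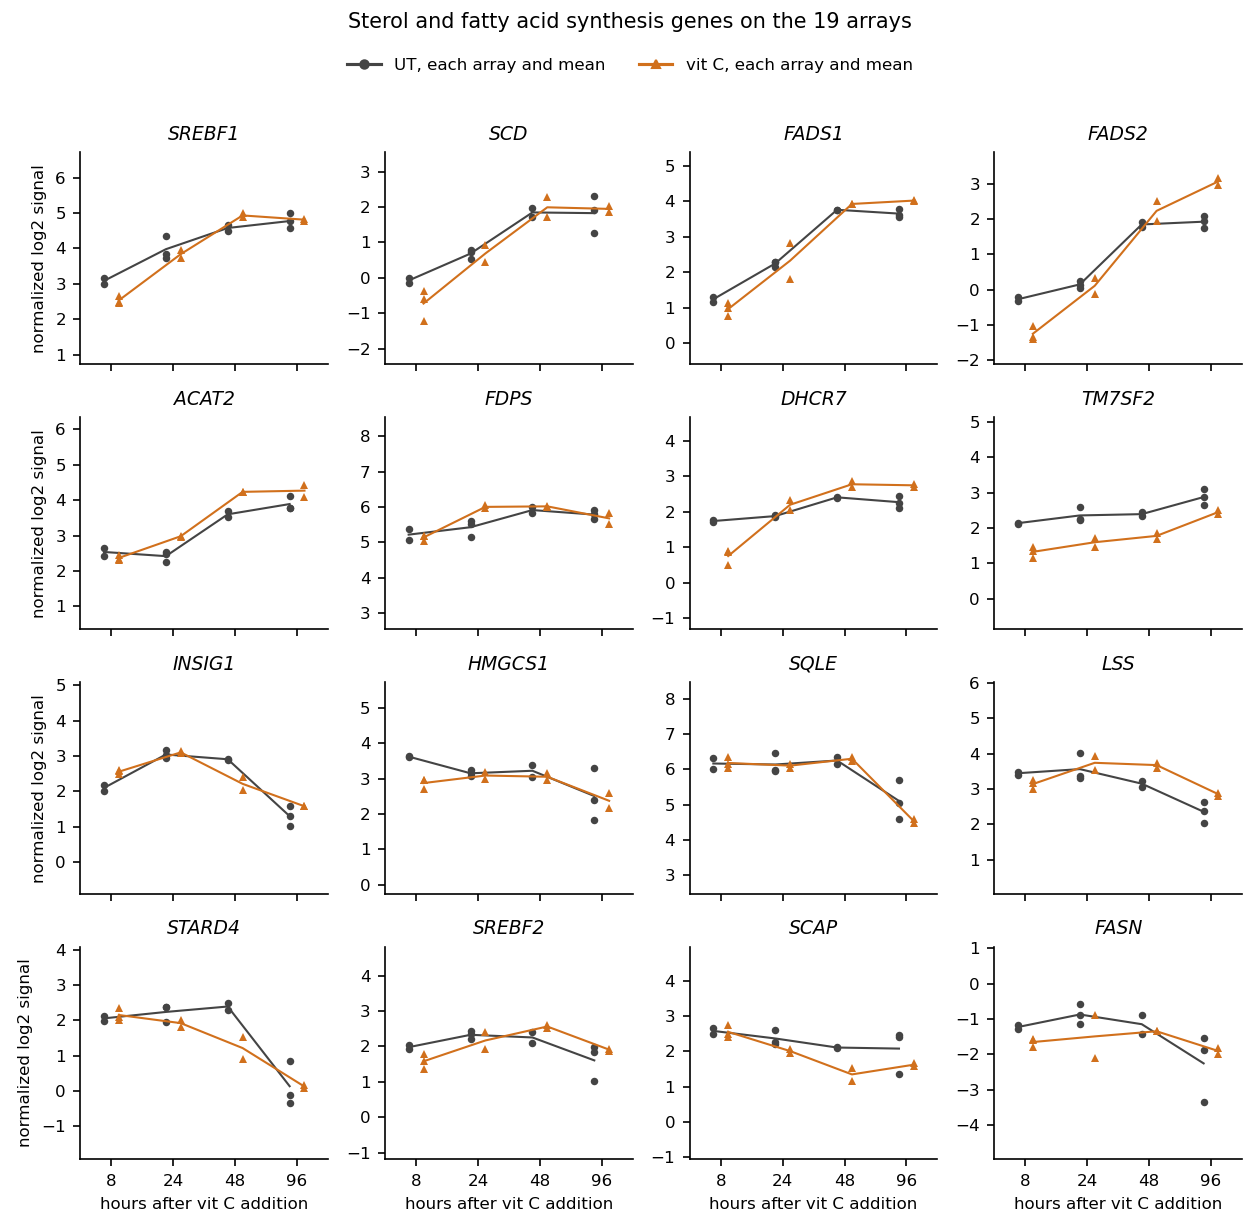
Normalized log2 signal (y axis) of 16 of the genes on each of the 19 arrays against hours after vitC addition (x axis, times evenly spaced), UT and vitC arrays as separate points and lines through group means. SREBF1, SCD, FADS1 and FADS2 climb from 8 to 48 h in both series, STARD4 and SQLE drop at 96 h in both, and TM7SF2 is lower in vitC cells at each time.

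In UT cells, 3 of 30 genes passed at 24 h against 8 h (3.07% of all genes), 8 at 48 h (9.29% of all genes) and 15 at 96 h (17.8% of all genes). All 3 (1.46% of all genes higher) and all 8 (5.42% of all genes higher) were higher than at 8 h, while at 96 h 9 were higher (9.50% of all genes) and 6 lower (8.30% of all genes). The median change of the 30 genes was 0.15, 0.17 and -0.08 at the 3 times, against 0.05, 0.04 and 0.02 over all genes and -0.02, -0.06 and -0.05 over the 23159 genes well above background in a group. By F test over the 4 times 16 of 30 passed in UT cells (25.2% of all genes). Replicates were separate flasks, and these p-values measure only the spread between the 2 or 3 flasks of a group, pooled over all 8 groups. A group with a wide spread, such as UT cells at 96 h, is thus judged partly by the spread of the others. In bulk RNA, a change in the share of some cells and a change in RNA per cell cannot be told apart. The summed signal of 5 genes of dividing cells (MKI67, TOP2A, CCNB1, CCNA2 and BUB1), relative to the 75th percentile, was 3.42 to 5.33 at 8 and 24 h, 10.2 to 20.9 at 48 h and 30.3 to 51.6 at 96 h over both treatments, and its part in the changes with time was not tested.

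The 30 genes had a median SD between replicates of 0.09 at 8 h in UT cells and at 96 h in vitC cells, the lowest of the 8 groups, and of 0.34 at 96 h in UT cells, the highest. UT 96 h replicate 3 lay more than 0.5 from its group mean in 12 of 30 genes, replicate 2 in 8 and replicate 1 in 2. Without replicate 3, 17 genes passed at 96 h (20.5% of all genes in that fit), with IDI1 (-0.73, q = 0.0386), CYP51A1 (-0.66, q = 0.0111) and SC4MOL (-1.89, q = 0.000479) joining and FDPS (q = 0.0538) leaving. A limma fit that included slide let 9 genes pass at 96 h (8.67% of all genes in that fit), 5 higher and 4 lower. The calls of HMGCS1, MVK, PMVK, FDPS, TM7SF2 and DHCR7 at 96 h were lost in that fit (q = 0.144 to 0.433). On the slide of the 8 h arrays alone, with 1 array at 96 h that was assumed to vary like the other groups, 12 passed (9.90% of all genes in that fit), 5 higher and 7 lower.

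Of the 5 genes in control of the SREBPs, 2 passed at each of 24, 48 and 96 h against 8 h in UT cells (3.07%, 9.29% and 17.8% of all genes). These were SREBF1 and INSIG1. SREBF1 encodes the SREBP best known for driving fatty acid genes. In UT cells its signal was 3.00 and 3.17 at 8 h, 4.36, 3.84 and 3.74 at 24 h, 4.67 and 4.49 at 48 h, and 4.57, 4.99 and 4.77 at 96 h. It rose by 0.89 at 24 h (SE 0.20, q = 0.0284), by 1.50 at 48 h (2.82-fold, q = 0.000514) and by 1.69 at 96 h (3.23-fold, SE 0.20, q = 3.28e-05). In vitC cells the signal was 2.48, 2.46 and 2.66 at 8 h, 3.95 and 3.73 at 24 h, 4.88 and 4.99 at 48 h, and 4.84 and 4.79 at 96 h. The rise there was 1.31 at 24 h (q = 0.00111), 2.40 at 48 h (5.29-fold, q = 1.64e-06) and 2.28 at 96 h (4.86-fold, q = 1.51e-06). In each series the arrays at 24, 48 and 96 h all lay above those at 8 h, and the other SREBF1 probe rose by 1.60 at 48 h in UT cells. The call at 24 h in UT cells was lost without either UT 8 h array (q = 0.129 and 0.226), without UT 24 h replicate 1 (q = 0.0731) and without replicate 2 (q = 0.0524), and the other 5 calls held whichever array was left out.

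INSIG1, whose protein retains SCAP and which is itself a classic SREBP target, rose and then fell in UT cells. UT cells gave 2.02 and 2.17 at 8 h, 3.17, 3.02 and 2.93 at 24 h, 2.92 and 2.89 at 48 h, and 1.01, 1.30 and 1.58 at 96 h. Against 8 h it was higher by 0.94 at 24 h (1.92-fold, SE 0.18, q = 0.0116) and by 0.81 at 48 h (q = 0.0189). At 96 h it was lower than at 8 h by 0.80 (1.74-fold lower, SE 0.18, q = 0.00652). At no time did its arrays overlap with those at 8 h. VitC cells gave 2.49, 2.58 and 2.59 at 8 h, 3.07 and 3.13 at 24 h, 2.39 and 2.03 at 48 h, and 1.58 and 1.57 at 96 h. Here neither 24 nor 48 h passed, and at 96 h INSIG1 fell by 0.98 (1.97-fold lower, SE 0.18, q = 0.00121). Without UT 8 h replicate 1 the UT calls at 24 and 48 h had q = 0.13 and 0.138, without replicate 2 q = 0.0781 and 0.0686, and at 96 h without replicate 2 q = 0.0769. Without UT 48 h replicate 1 or 2, q at 48 h was 0.108 and 0.0956. The vitC 96 h call held without any single array.

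SREBF2, which encodes the SREBP best known for sterol genes, and SCAP, its escort, passed in no comparison with 8 h in UT cells. SREBF2 signals in UT cells were 1.93 and 2.03 at 8 h, 2.20, 2.35 and 2.44 at 24 h, 2.40 and 2.11 at 48 h, and 1.83, 1.98 and 1.01 at 96 h. Those in vitC cells were 1.60, 1.36 and 1.78 at 8 h, 2.40 and 1.94 at 24 h, 2.51 and 2.62 at 48 h, and 1.94 and 1.88 at 96 h. The rise at 48 h in vitC cells was 0.99 (1.98-fold, SE 0.26, q = 0.0169), which was lost without vitC 8 h replicate 2 (q = 0.067), vitC 48 h replicate 1 (q = 0.0736) or vitC 48 h replicate 2 (q = 0.12). For SCAP, UT cells had 2.66 and 2.50 at 8 h, 2.22, 2.26 and 2.62 at 24 h, 2.12 and 2.10 at 48 h, and 2.47, 2.41 and 1.36 at 96 h, with UT 96 h replicate 3 the lowest. SCAP in vitC cells was 2.49, 2.42 and 2.75 at 8 h, 1.96 and 2.06 at 24 h, 1.54 and 1.16 at 48 h, and 1.66 and 1.59 at 96 h. It fell by 1.20 at 48 h (2.3-fold lower, SE 0.28, q = 0.00883) and by 0.93 at 96 h (1.9-fold lower, q = 0.0231) in vitC cells. The call at 48 h was lost without vitC 48 h replicate 2 (q = 0.111), and that at 96 h without vitC 8 h replicate 3 (q = 0.0722), vitC 96 h replicate 1 (q = 0.0864) or replicate 2 (q = 0.134). INSIG2, the second INSIG gene, had group means between -1.42 and -0.30 and passed in no test.

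The 3 desaturases gave the largest increases of the 30 genes at 48 and 96 h in UT cells. SCD puts the first double bond into saturated fatty acyl chains. UT arrays read 0.00 and -0.15 at 8 h, 0.80, 0.74 and 0.52 at 24 h, 1.72 and 1.98 at 48 h, and 2.32, 1.26 and 1.91 at 96 h, and those at 48 and 96 h all lay above 8 and 24 h. SCD rose by 1.92 at 48 h (3.79-fold, SE 0.34, q = 0.00203) and by 1.91 at 96 h (3.75-fold, SE 0.31, q = 0.000511). VitC arrays read -0.37, -0.60 and -1.21 at 8 h, 0.44 and 0.94 at 24 h, 2.28 and 1.71 at 48 h, and 2.03 and 1.87 at 96 h. SCD rose there by 1.41 at 24 h (2.66-fold, q = 0.0126), by 2.72 at 48 h (6.59-fold, q = 2.63e-05) and by 2.68 at 96 h (6.39-fold, q = 1.92e-05). All 3 probes of SCD moved alike at 48 h in UT cells, by 1.92, 2.08 and 1.75. The vitC 24 h call was lost without vitC 8 h replicate 3 (q = 0.0509) or vitC 24 h replicate 2 (q = 0.158).

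FADS1 and FADS2, neighbours on chromosome 11, catalyse the front-end desaturations that lead to arachidonic and eicosapentaenoic acid. FADS1 read 1.31 and 1.16 at 8 h, 2.16, 2.30 and 2.28 at 24 h, 3.76 and 3.77 at 48 h, and 3.62, 3.79 and 3.56 at 96 h in UT cells. Its rise was 1.01 at 24 h (2.01-fold, SE 0.23, q = 0.0321), 2.53 at 48 h (5.76-fold, SE 0.26, q = 2.13e-05) and 2.42 at 96 h (5.34-fold, SE 0.23, q = 4.84e-06). FADS1 in vitC cells read 0.99, 0.75 and 1.13 at 8 h, 2.83 and 1.82 at 24 h, 3.94 and 3.92 at 48 h, and 4.04 and 4.01 at 96 h, with rises of 1.37, 2.97 and 3.06 (q = 0.00248, 9.27e-07 and 3.64e-07). Arrays at 48 h lay above those at 24 h in both series. The call at 24 h in UT cells was lost without any 1 of the 5 arrays (q = 0.0588 to 0.229), while the calls at 48 and 96 h and all 3 in vitC cells held, with the vitC rise at 24 h at 0.86 without replicate 1 of that time and 1.87 without replicate 2.

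FADS2 read -0.22 and -0.32 at 8 h, 0.14, 0.06 and 0.25 at 24 h, 1.91 and 1.78 at 48 h, and 1.75, 1.93 and 2.09 at 96 h in UT cells. At 24 h it did not pass (0.42), and it rose by 2.11 at 48 h (4.33-fold, SE 0.23, q = 4.02e-05) and by 2.19 at 96 h (4.56-fold, SE 0.21, q = 4.69e-06). In vitC cells FADS2 read -1.39, -1.33 and -1.02 at 8 h, 0.34 and -0.12 at 24 h, 1.94 and 2.52 at 48 h, and 3.17 and 2.96 at 96 h. From 8 h it rose by 1.36 at 24 h (q = 0.0012), 3.48 at 48 h (11.2-fold, q = 9.46e-08) and 4.31 at 96 h (19.9-fold, SE 0.21, q = 8.67e-09), the largest change among the 30 genes in any comparison. These 5 calls held whichever single array was left out, and rest on the brighter of its probes.

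**Figure D2:**
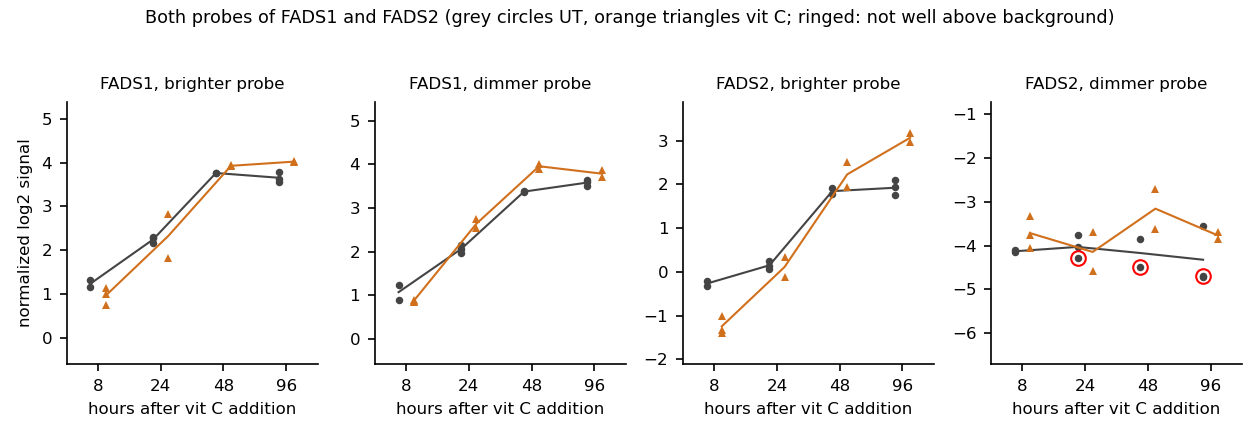
Normalized log2 signal (y axis) of both probes of FADS1 and of FADS2 on the 19 arrays against hours (x axis, times evenly spaced), with lines through group means and rings where a probe was not well above background. Both FADS1 probes climb, whereas of the FADS2 probes the brighter one climbs and the dimmer one, well above background on 16 of 19 arrays, stays between -4.72 and -2.70.

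The 2 probes of FADS1 moved alike, and those of FADS2 did not. Both FADS1 probes rose alike in UT cells, by 2.53 and 2.30 at 48 h and by 2.42 and 2.51 at 96 h. The second FADS2 probe, with a mean signal of -3.94 against 0.87 for the first, changed by -0.04 at 48 h and -0.19 at 96 h in UT cells and by -0.43, 0.56 and -0.06 at 24, 48 and 96 h in vitC cells. A filter that drops genes with opposing probes, as the authors used, removed FADS2 from the comparisons with 8 h at 48 and 96 h in UT cells and at 24 and 96 h in vitC cells. With the mean over both probes FADS2 rose by 1.04 at 48 h and 1.00 at 96 h in UT cells and by 2.02 at 48 h and 2.13 at 96 h in vitC cells, and the vitC 24 h call was lost (0.46, q = 0.428). What each probe detects was not tested.

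Of the 7 mevalonate pathway genes, 2 passed at 48 h in UT cells (9.29% of all genes) and 5 at 96 h (17.8% of all genes), 3 higher and 2 lower. ACAT2, the cytosolic thiolase that makes acetoacetyl-CoA at the entry to the pathway, rose most. UT arrays gave 2.42 and 2.65 at 8 h, 2.52, 2.26 and 2.47 at 24 h, 3.51 and 3.69 at 48 h, and 3.77, 3.79 and 4.11 at 96 h. It rose by 1.06 at 48 h (2.09-fold, SE 0.19, q = 0.00227) and 1.36 at 96 h (2.56-fold, SE 0.17, q = 6.31e-05). VitC arrays gave 2.35, 2.30 and 2.45 at 8 h, 2.96 and 3.00 at 24 h, 4.23 and 4.24 at 48 h, and 4.44 and 4.10 at 96 h, with rises of 1.87 (3.65-fold, q = 4.04e-06) and 1.90 (3.73-fold, q = 2.13e-06) at 48 and 96 h. These 4 calls held whichever array was left out.

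HMGCS1, the synthase of HMG-CoA, and MVK, mevalonate kinase, were the 2 lower genes. HMGCS1 read 3.61 and 3.64 at 8 h, 3.24, 3.15 and 3.07 at 24 h, 3.05 and 3.40 at 48 h, and 2.41, 1.83 and 3.29 at 96 h in UT cells, with 96 h replicates 1 and 2 below all other UT arrays and replicate 3 within the range of 24 and 48 h. It fell by 1.12 at 96 h (2.17-fold lower, SE 0.31, q = 0.0214), and the call was lost without UT 8 h replicate 1 (q = 0.105), UT 8 h replicate 2 (q = 0.117) or UT 96 h replicate 2 (q = 0.0586). In vitC cells HMGCS1 read 2.96, 2.96 and 2.71 at 8 h, 2.99 and 3.19 at 24 h, 3.15 and 2.96 at 48 h, and 2.59 and 2.16 at 96 h and passed at no time. MVK in UT cells read 2.79 and 2.88 at 8 h, 2.75, 2.26 and 2.23 at 24 h, 2.42 and 2.51 at 48 h, and 2.13, 2.28 and 2.21 at 96 h. MVK fell by 0.62 at 96 h (1.54-fold lower, q = 0.0386). In vitC cells, which read 2.04, 1.87 and 2.10 at 8 h, 2.55 and 2.12 at 24 h, 2.44 and 2.62 at 48 h, and 2.67 and 2.45 at 96 h, it rose by 0.55 at 96 h (1.47-fold, q = 0.0434). Both MVK calls were lost in 4 and in all 5 of the 5 fits without 1 array, with the highest q 0.203 and 0.24.

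PMVK, phosphomevalonate kinase, read 2.70 and 2.36 at 8 h, 2.07, 2.64 and 2.84 at 24 h, 2.76 and 2.52 at 48 h, and 3.36, 3.78 and 3.27 at 96 h in UT cells. It rose by 0.94 at 96 h (1.92-fold, SE 0.25, q = 0.0153), but not without UT 8 h replicate 2 (q = 0.16) or UT 96 h replicate 2 (q = 0.0501). In vitC cells PMVK was 2.70, 2.48 and 2.95 at 8 h, 2.84 and 2.51 at 24 h, 2.46 and 2.56 at 48 h, and 3.34 and 3.15 at 96 h and passed at no time. MVD, the decarboxylase that yields isopentenyl diphosphate, spread widely at 96 h in UT cells. Its UT signals were 1.09 and 1.03 at 8 h, 1.11, 1.33 and 1.67 at 24 h, 1.23 and 1.04 at 48 h, and -0.34, 0.74 and -1.93 at 96 h, a fitted change of -1.57 at 96 h (q = 0.0615), or -0.86 without replicate 3 (q = 0.133), and it passed by the F test over time in UT cells (q = 0.0336). MVD in vitC cells was 0.89, 0.62 and 1.34 at 8 h, 2.01 and 0.97 at 24 h, 1.26 and 1.36 at 48 h, and -0.04 and -0.24 at 96 h, without a call.

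IDI1, the isomerase of that product, and FDPS, the synthase of farnesyl diphosphate, followed. IDI1 gave 2.69 and 2.38 at 8 h, 2.08, 2.19 and 2.23 at 24 h, 2.51 and 2.87 at 48 h, and 1.98, 1.63 and 2.99 at 96 h in UT cells, without a call, and 2.06, 1.92 and 1.71 at 8 h, 1.93 and 2.58 at 24 h, 2.62 and 2.60 at 48 h, and 2.86 and 2.72 at 96 h in vitC cells. It rose by 0.90 at 96 h in vitC cells (1.86-fold, SE 0.32, q = 0.0464), a call lost without any 1 of the 5 arrays (q = 0.0659 to 0.191). FDPS gave 5.37 and 5.07 at 8 h, 5.16, 5.53 and 5.60 at 24 h, 5.83 and 6.00 at 48 h, and 5.65, 5.92 and 5.79 at 96 h in UT cells. It rose by 0.69 at 48 h (q = 0.0424) and 0.56 at 96 h (q = 0.0453). FDPS in vitC cells gave 5.19, 5.04 and 5.19 at 8 h, 5.96 and 6.05 at 24 h, 6.01 and 6.03 at 48 h, and 5.83 and 5.53 at 96 h, with rises of 0.86, 0.88 and 0.54 (q = 0.01, 0.00379 and 0.0372). Left without 1 array, FDPS lost its UT call at 48 h in all 4 fits (q = 0.071 to 0.262), at 96 h in 4 of 5 (q up to 0.321), its vitC call at 24 h without vitC 24 h replicate 2 (q = 0.0907) and at 96 h in all 5 (q = 0.0649 to 0.266), and kept that at 48 h.

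The 3 genes of squalene and lanosterol had a median change of -1.05 at 96 h in UT cells (0.02 over all genes), and 2 of them passed as lower (8.30% of all genes). SQLE, squalene epoxidase, a rate-controlling enzyme of the pathway, read 6.02 and 6.31 at 8 h, 6.46, 5.99 and 5.96 at 24 h, 6.16 and 6.34 at 48 h, and 4.59, 5.04 and 5.69 at 96 h in UT cells. It fell by 1.05 at 96 h (2.08-fold lower, SE 0.26, q = 0.012). VitC cells read 6.16, 6.35 and 6.03 at 8 h, 6.05 and 6.16 at 24 h, 6.24 and 6.36 at 48 h, and 4.48 and 4.59 at 96 h. There SQLE fell by 1.64 (3.12-fold lower, SE 0.26, q = 0.000389). In both series the 96 h arrays lay below all others, and the UT call, but not the vitC one, was lost without UT 8 h replicate 2 (-0.91, q = 0.124). At UT 96 h replicate 1, the 1 array on the slide of the 8 h arrays, it fell by 1.57.

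LSS closes the epoxide to lanosterol. Its UT signals were 3.41 and 3.49 at 8 h, 4.01, 3.31 and 3.38 at 24 h, 3.24 and 3.07 at 48 h, and 2.05, 2.38 and 2.65 at 96 h, and it fell by 1.09 at 96 h (2.13-fold lower, SE 0.23, q = 0.0042), with its 4 probes at -1.09, -0.91, -1.23 and -1.19. In vitC cells LSS was 2.99, 3.27 and 3.17 at 8 h, 3.94 and 3.55 at 24 h, 3.61 and 3.75 at 48 h, and 2.89 and 2.82 at 96 h, with no comparison with 8 h passing, although the F test over time did (q = 0.0296), and with the mean over its 4 probes the comparisons at 24 and 48 h passed as well. FDFT1, squalene synthase, read 3.89 and 3.98 at 8 h, 4.19, 4.10 and 4.06 at 24 h, 4.11 and 4.17 at 48 h, and 3.69, 3.47 and 3.48 at 96 h in UT cells and 3.83, 3.85 and 3.67 at 8 h, 3.92 and 4.01 at 24 h, 3.56 and 3.73 at 48 h, and 3.73 and 3.49 at 96 h in vitC cells. It passed by the F test in UT cells (q = 0.0174) and in no comparison with 8 h.

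Between lanosterol and cholesterol, 2 of 8 genes passed at 96 h in UT cells (17.8% of all genes) and 3 in vitC cells (30.9% of all genes), all higher. DHCR7 reduces the last intermediate to cholesterol. UT cells gave 1.77 and 1.71 at 8 h, 1.91, 1.85 and 1.88 at 24 h, 2.40 and 2.42 at 48 h, and 2.26, 2.44 and 2.12 at 96 h, a rise of 0.67 at 48 h (1.59-fold, q = 0.0386) and 0.54 at 96 h (1.45-fold, q = 0.0438). VitC cells started lower and ended higher, with 0.90, 0.50 and 0.85 at 8 h, 2.34 and 2.06 at 24 h, 2.70 and 2.86 at 48 h, and 2.80 and 2.70 at 96 h. The rise there was 1.45 at 24 h (2.74-fold, q = 0.000144), 2.03 at 48 h (4.09-fold, SE 0.17, q = 1.71e-06) and 2.00 at 96 h (4-fold, q = 1.11e-06). The vitC calls held whichever array was left out, whereas the UT calls were lost in all 4 fits at 48 h (q = 0.136 to 0.188) and in 4 of 5 at 96 h (q up to 0.21).

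TM7SF2, a sterol reductase whose activity LBR shares, read 2.15 and 2.12 at 8 h, 2.59, 2.21 and 2.26 at 24 h, 2.33 and 2.45 at 48 h, and 2.64, 2.87 and 3.11 at 96 h in UT cells and 1.45, 1.16 and 1.36 at 8 h, 1.72 and 1.47 at 24 h, 1.68 and 1.87 at 48 h, and 2.51 and 2.39 at 96 h in vitC cells. It rose by 0.74 at 96 h in UT cells (1.67-fold, q = 0.012) and by 1.13 in vitC cells (2.19-fold, q = 0.000472). The vitC call held without any single array, and the UT call was lost without UT 8 h replicate 1 (q = 0.0729) or 2 (q = 0.0838). The second TM7SF2 probe changed by 0.29 at 96 h in UT cells and by 0.04 in vitC cells, and both calls were lost with the mean over probes (0.51 in UT cells and 0.59 in vitC cells, q = 0.123 in the latter). EBP, the isomerase of the sterol ring, read 4.72 and 4.67 at 8 h, 4.51, 4.30 and 4.51 at 24 h, 4.95 and 5.02 at 48 h, and 4.94, 4.80 and 5.14 at 96 h in UT cells, where it passed only by the F test over time (q = 0.0385). EBP in vitC cells read 4.16, 4.18 and 4.28 at 8 h, 4.24 and 4.47 at 24 h, 4.78 and 4.92 at 48 h, and 5.06 and 4.85 at 96 h. It rose there by 0.64 at 48 h (q = 0.0132) and 0.75 at 96 h (1.68-fold, q = 0.0035), and the call at 48 h was lost without vitC 48 h replicate 1 (q = 0.0526) or 2 (q = 0.123). The group means of the other 5 genes ran from 2.23 to 2.68 for CYP51A1, -2.04 to -0.61 for SC4MOL, -1.15 to -0.50 for NSDHL, -1.37 to -0.74 for HSD17B7 and 1.00 to 1.88 for SC5DL. SC4MOL, a methylsterol oxidase, had 1 UT 96 h array at -0.80 and the other two at -2.71 and -2.61 (change -1.27, q = 0.073).

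STARD4, a soluble carrier of cholesterol between membranes, showed the steepest fall of the 30 genes. UT signals were 1.99 and 2.12 at 8 h, 2.38, 2.37 and 1.96 at 24 h, 2.30 and 2.48 at 48 h, and -0.33, -0.11 and 0.85 at 96 h. It fell by 1.92 at 96 h in UT cells (3.78-fold lower, SE 0.30, q = 0.000362), and by 2.39 at UT 96 h replicate 1, the 1 array on the slide of the 8 h arrays. VitC signals were 2.10, 2.34 and 2.01 at 8 h, 1.82 and 2.02 at 24 h, 1.52 and 0.91 at 48 h, and 0.17 and 0.08 at 96 h. The fall was 0.93 at 48 h (1.91-fold lower, q = 0.0486) and 2.02 at 96 h (4.07-fold lower, SE 0.30, q = 0.000183). In both series the 96 h arrays lay below those of all earlier times. Both 96 h calls held whichever array was left out, and the vitC 48 h call was lost in all 5 such fits (q = 0.0502 to 0.408).

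The genes that build the fatty acyl chain itself passed nowhere. ACLY, which supplies cytosolic acetyl-CoA from citrate, had group means of 5.26 to 5.75. ACACA, acetyl-CoA carboxylase, ran from -3.44 to -2.63, and FASN, fatty acid synthase, from -2.25 to -0.87. FASN at 96 h in UT cells was -1.88, -1.54 and -3.34, a change of -1.02 (q = 0.134), against 8 h arrays at -1.17 and -1.28. Without replicate 3, its lowest array, the change was -0.48 (q = 0.34).

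**Figure D3:**
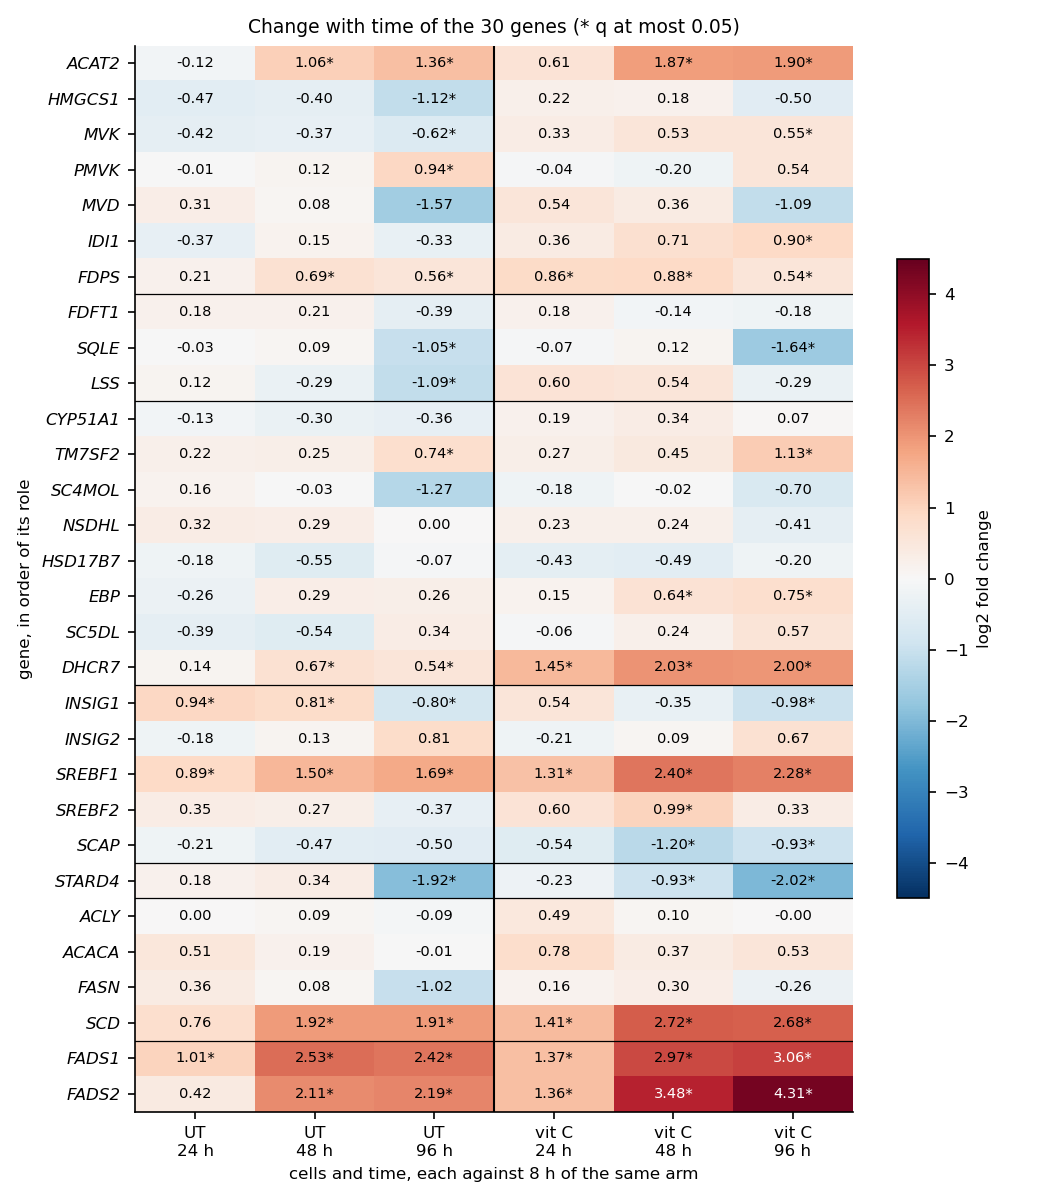
Heat map of the log2 change from 8 h (colour) of the 30 genes (rows, by role) at 24, 48 and 96 h in UT and in vitC cells (columns), with a star where q was at most 0.05. Stars number 3, 8 and 15 in UT cells and 6, 11 and 15 in vitC cells, with the strongest increases in the desaturases and SREBF1 and the strongest starred decreases at 96 h in STARD4 in UT cells and in STARD4 and SQLE in vitC cells.

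Counted over the vitC series, 6 of 30 genes passed at 24 h (6.21% of all genes), 11 at 48 h (15.6% of all genes) and 15 at 96 h (30.9% of all genes), and by the F test over time 15 passed (35.1% of all genes). The change was a rise in 6 at 24 h (3.47% of all genes), 9 at 48 h (8.55% of all genes) and 11 at 96 h (12.8% of all genes), and a fall in 2 at 48 h (7.08% of all genes) and 4 at 96 h (18.1% of all genes). UT and vitC series use different arrays. At 48 h the 7 genes that rose in both were ACAT2, FDPS, DHCR7, SREBF1, SCD, FADS1 and FADS2, 87.5% of the UT list and 63.6% of the vitC list, against 77.0% and 45.8% for the 2 lists of all genes. At 96 h 11 genes passed in both in the same direction, 73.3% of each list, against 70.0% and 40.3% for all genes, and MVK passed in opposite directions. At 24 h SREBF1 and FADS1 were shared (66.7% and 33.3%, against 69.6% and 34.4%). The median change of the 30 genes in vitC cells was 0.30, 0.35 and 0.43 at the 3 times, against -0.06, 0.08 and -0.17 over all genes and 0.02, -0.05 and -0.02 over those well above background in a group. The vitC 96 h arrays had a slide of their own, so time and slide cannot be told apart there.

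VitC against UT cells of the same time gave few differences. DHCR7 passed at 8 h, 1 of 30 genes (0.467% of all genes), none did at 24 h (1.59% of all genes) or 48 h (3.49% of all genes), and FADS2 passed at 96 h, 1 of 30 (9.66% of all genes). At an unadjusted p under 0.05 there were 8, 3, 6 and 5 of 30 genes (12.6%, 16.3%, 15.8% and 25.2% of all genes), and the methods' t-test gave none at q of 0.05 at any time. At 8 h 24 of 30 genes had a lower mean in vitC cells (55.0% of all genes and 59.8% of the 23159 genes well above background in a group), with a median difference of -0.30 against -0.05 over all genes; at 24, 48 and 96 h the medians were -0.04, 0.06 and 0.05, against -0.13, -0.02 and -0.15. Over those 23159 genes, the medians at the 4 times were -0.08, -0.02, -0.06 and -0.05.

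**Figure D4:**
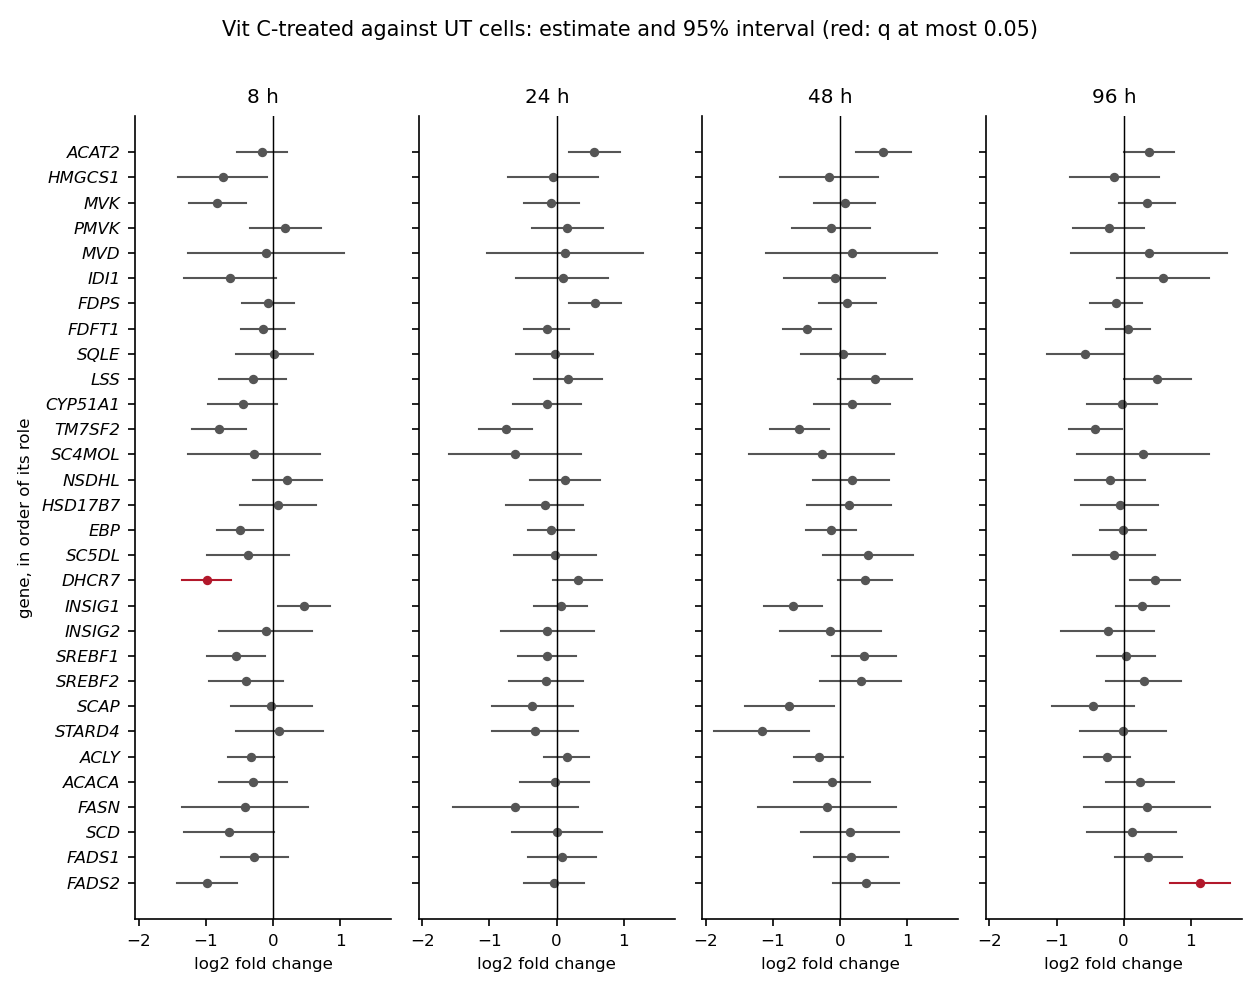
Difference vitC minus UT in log2 signal (x axis) with its 95% interval for each of the 30 genes (y axis), in 1 panel for each of 8, 24, 48 and 96 h, red where q was at most 0.05. DHCR7 at 8 h and FADS2 at 96 h are the points in red, and TM7SF2 lies left of 0 in every panel.

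DHCR7 at 8 h read 0.90, 0.50 and 0.85 in vitC cells and 1.77 and 1.71 in UT cells, 1.99-fold lower (difference -0.99, 95% interval -1.36 to -0.63, q = 0.0248). By 24 h the order was the other way, with 2.34 and 2.06 in vitC cells above 1.91, 1.85 and 1.88 in UT cells, and at 48 and 96 h the vitC arrays also lay above the UT arrays, without passing. The vitC effects at the 4 times differed from each other for DHCR7 (limma F test, q = 0.0166). The call at 8 h was lost in each of the 5 fits without 1 array (q = 0.0517 to 0.163) and with the slide as a term (-1.01, q = 0.665).

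FADS2 was lower in vitC cells at 8 h, short of the threshold, and higher at 96 h. At 8 h vitC cells read -1.39, -1.33 and -1.02 and UT cells -0.22 and -0.32 (difference -0.98, q = 0.059). At 96 h vitC cells read 3.17 and 2.96 and UT cells 1.75, 1.93 and 2.09, 2.21-fold higher (difference 1.14, 95% interval 0.69 to 1.59, q = 0.00653). Its vitC effects also differed between times (limma F test, q = 0.013). The second probe gave 0.42 at 8 h and 0.55 at 96 h, the mean over both probes 0.85 at 96 h, which did not pass, and without vitC 96 h replicate 1 the difference was 1.04 (q = 0.0924). The summed signal of 13 markers of other cell types, 5 to 9 of them well above background on an array, was 7.425 and 8.278 on the vitC 96 h arrays and 1.971 to 4.897 on all others. The list did not rise as a whole. At 96 h 7 of the 13 were higher and 6 lower in vitC than in UT cells, with a median difference of 0.00. The part of these markers in the FADS2 result was not tested.

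Averaged over the 4 times, 2 of 30 genes passed (13.2% of all genes), and 2 of 30 had effects that differed between times (1.25% of all genes). TM7SF2 was lower in vitC cells, by 0.65 on average (1.57-fold, SE 0.10, 95% interval -0.86 to -0.45, q = 0.000647). Its differences were -0.81, -0.76, -0.61 and -0.42 at 8, 24, 48 and 96 h, the UT and vitC arrays did not overlap at any time, and its second probe averaged -0.39. ACAT2 was higher in vitC cells by 0.35 on average (1.28-fold, SE 0.09, q = 0.0191), with arrays at 24 and 48 h apart from those of UT cells. Its differences were -0.17, 0.56, 0.64 and 0.38 at the 4 times, and those of its second probe -0.06, 0.72, 0.72 and 0.58. TM7SF2 passed whichever array was left out, while ACAT2 did not without UT 8 h replicate 1 (q = 0.053), UT 48 h replicate 1 (q = 0.0543) or vitC 96 h replicate 1 (q = 0.0584). UT and vitC arrays of a time lay on different slides. For these averages, and for effects that differed between times, slide and vitC therefore cannot be told apart.

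Differences with an unadjusted p under 0.05 that did not pass included those of MVK (-0.83, q = 0.0788) at 8 h, and of STARD4 (-1.17, q = 0.0683), INSIG1 (-0.70, q = 0.0743) and SCAP (-0.76, q = 0.236) at 48 h. STARD4 at 48 h read 1.52 and 0.91 in vitC cells and 2.30 and 2.48 in UT cells, without overlap. SREBF1 had a difference of -0.55 at 8 h (q = 0.252), and its 95% intervals ran from -0.99 to -0.12 at 8 h and from -0.39 to 0.47 at 96 h. Those of SCD ran from -1.32 to 0.01 and from -0.55 to 0.78.

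Of 31 other genes of sterol and fatty acid handling that were listed alongside, 2, 5 and 10 passed at 24, 48 and 96 h in UT cells (3.07%, 9.29% and 17.8% of all genes). ABCA1, the exporter of cholesterol to apolipoproteins, rose by 1.89 at 24 h (q = 0.000945) and by 2.75 at 96 h (q = 2.98e-06), and NR1H3, which encodes an LXR, rose by 1.33 at 24 h (q = 0.00149). ABCG1, another exporter, rose by 4.90 at 48 h (q = 4.59e-05) and 4.92 at 96 h (q = 7.4e-06), from 8 h arrays of which 1 of 2 was well above background. FADS3, the third gene of the FADS cluster, fell by 2.58 at 96 h (q = 0.00348).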

How the data were processed

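RNA of PMA-differentiated THP-1 cells was labelled with Cy3 and hybridised by the authors to 19 Agilent 1-colour arrays. Per the file headers, the deposited intensity values are processed spot signals of Feature Extraction 10.5.1.1, with no normalization between arrays. The deposited log2 values of the series matrix were made by the authors with a 75th percentile shift in GeneSpring and served as an alternative. Deposited 0 or 1 flags gave spots above background, outliers and saturation.

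From the intensities, control spots and 30 to 79 outlier spots per array were left out and none of them belonged to the 51 probes of the 30 genes. Spots of a probe were averaged, each array's 75th percentile was subtracted on the log2 scale, and each of 31033 gene names took the brightest of its probes. The 75th percentile signal was 290.2 to 902.3, and 57.5% to 72.8% of probes were well above background. No spot was saturated. The number of arrays limits the precision.

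A model of 8 group means over all 19 arrays was fitted with limma 3.58.1 (lmFit and eBayes, 2-sided) in R 4.3.3 with the data.table package (1.17.8), with Benjamini-Hochberg adjustment over all genes, and a gene passed at q of 0.05 or less. F tests compared the 4 vitC effects and the 4 times. The fit was tested on simulated data. Figures used Python 3.11.15, pandas 2.3.3 and matplotlib 3.10.9.

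Genes were named by rule: all 30 were accounted for, values on every array were given for those with q of 0.05 or less in any test and for INSIG1, SREBF1, SREBF2 and SCAP, and of related genes at most the 3 largest changes in a comparison. Some related genes are not reported here. The members, lists and tests were chosen with earlier results of these data known. Alternatives were an intensity trend, quantile normalization, the percentile over detected probes, normexp background correction with an offset of 50, a filter on dim genes, the mean over probes, removal of genes with opposing probes, slide as fixed or random term, 1 slide alone, a replicate block, the series matrix, the methods' t-test and each array left out. The comparisons of vitC cells with their own 8 h and a block on the numbers in the sample descriptions were added after the data were seen.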

Additional observations from a re-analysis of the deposited data

Results flagged for a closer look

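The difference of vitC from UT cells varied between the 4 time points for 2 of the 30 genes (1.25% of all genes). UT and vitC arrays of a time lay on different slides, so slide and vitC cannot be told apart here. For DHCR7 the limma F test of the differences among the 4 effects gave q = 0.0166, with vitC minus UT at -0.99 at 8 h and 0.47 at 96 h. For FADS2 it gave q = 0.013, with -0.98 at 8 h and 1.14 at 96 h. Both calls were lost without UT 8 h replicate 1 or without vitC 96 h replicate 1, and that of DHCR7 also without UT 8 h replicate 2. Without UT 96 h replicate 3, IDI1, INSIG1 and STARD4 passed this test as well. With a replicate block, on the numbers of the titles or of the descriptions, DHCR7 did not pass, and with the mean over probes FADS2 did not. Groups of 2 or 3 arrays are too small for a test of single outlying arrays.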

How the results depend on the processing

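None of the 62 calls made for the 30 genes in single comparisons changed sign. The median vitC difference of the 30 genes at 48 h, 0.06, turned to -0.15 with slide as a fixed term and -0.02 with opposing probes removed. Without UT 96 h replicate 3, 10 of the 30 vitC differences at 96 h, none of them past the threshold, turned sign, such as MVD (0.38 to -0.33), FASN (0.35 to -0.20) and HMGCS1 (-0.14 to 0.25), as did 2 of the 30 changes from 8 h in UT cells. The share of all genes that passed moved with the fit as well. At 96 h in UT cells it was 17.8% in the main fit and 8.67% with slide as a fixed term. The counts under other fits are therefore no result about the 30 genes alone. The number of the 30 genes that passed moved by over 1.5 times as follows, and the cause was not tested. VitC against UT at 8 h (1 gene) gave 4 with an intensity trend, with normexp correction and with dim genes left out, 3 with quantile normalization, and 0 with slide as a fixed term, with a replicate block and by the methods' t-test. At 24 h (0 genes) it was 1 with the trend, quantile normalization, the percentile over detected probes, normexp correction and the dim gene filter. At 48 h (0 genes) it was 3 with the trend, 2 with the dim gene filter and 1 with quantile normalization and the percentile over detected probes. At 96 h (1 gene) it was 4 with normexp correction, 2 with quantile normalization and with opposing probes removed, and 0 by the methods' t-test. The average (2 genes) gave 4 with opposing probes removed, and the differences among vitC effects (2 genes) 1 with the mean over probes (DHCR7) and 1 with a replicate block (FADS2). In UT cells at 24 h (3 genes) it was 1 with slide as a fixed term, with a replicate block and on 1 slide alone, and 0 by the methods' t-test, which also gave 0 at 48 h (8 genes) and 1 at 96 h (15 genes). Slide as a fixed term left 9 at 96 h and 9 of 16 by the F test in UT cells, and 7 of 11 in vitC cells at 48 h, where the t-test left 0 of 6 at 24 h.

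With 1 array left out, the number passing was 0 to 0 for vitC against UT at 8, 24 and 48 h, 0 to 4 at 96 h, 1 to 3 for the average, 0 to 5 for the differences among effects, 0 to 2, 5 to 5 and 7 to 17 in UT cells at 24, 48 and 96 h, 4 to 6, 7 to 10 and 11 to 12 in vitC cells, and 11 to 18 and 12 to 15 by the F tests in UT and vitC cells. In the vitC against UT comparison at 96 h, IDI1, SC4MOL and SCAP joined FADS2 without UT 96 h replicate 3. The share of all genes moved in such fits too, as from 17.8% to 20.5% at 96 h against 8 h in UT cells without that array. Counts with 1 array left out are therefore no result about the 30 genes alone. Replicate numbers of the titles did not pair the samples: deviations of UT and vitC arrays with the same number correlated at -0.18 to 0.11, and those of arrays at different times at -0.25 to 0.14 in UT cells and -0.12 to 0.28 in vitC cells. The sample descriptions number the 48 h arrays 2 and 3 instead, with correlations across times of -0.25 to 0.24 and -0.08 to 0.28, and a replicate block on those numbers gave 0 for vitC against UT at 8 h, 1 and 5 in UT cells at 24 and 48 h and 1 for the differences among effects. The replicate block on title numbers left 6 genes at 48 h, 12 at 96 h and 11 by the F test in UT cells. The share of all genes in the fits with a block is not given, so these counts are no result about the 30 genes alone. The averaged vitC effect, all 96 h vitC values and the differences among effects could not be fitted with slide as a fixed term. The mean over probes lost 9 of the 62 calls: FADS2 for vitC against UT at 96 h and in vitC cells at 24 h, TM7SF2 and MVK at 96 h in both treatments, SREBF1 at 24 h and HMGCS1 at 96 h in UT cells, and SREBF2 at 48 h in vitC cells. It added LSS for vitC against UT at 96 h and averaged, and in vitC cells at 24 and 48 h, SCD at 24 h in UT cells and SC5DL at 96 h in vitC cells. TM7SF2 averaged over time passed in all 30 alternatives (-0.68 to -0.52, q = 0.000116 to 0.0296). Normexp correction shifted the median of all genes in UT cells from 0.05 to 0.27 at 24 h and from 0.04 to 0.30 at 48 h, above the median of the 30 genes (0.04 and 0.14).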
